A study of Mus musculus with 16 samples.

Results

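Mural cells are the pericytes and smooth muscle cells that wrap blood vessels, and 8 of their genes were followed in RNA-seq of compartmentalized mouse motoneurons: *Mgp*, *Pdgfrb*, *Rgs5*, *Tagln*, *Myl9*, *Des*, *Cnn1* and *Anpep*. They were taken by symbol from the deposited count table and make up 8 of its 46320 genes. The set was chosen by its readout, the far higher level of *Mgp* and *Pdgfrb* in axonal than in somatodendritic libraries. The compartment difference of these 8 genes is therefore a description here, without a test, whereas the effect of the genotype was tested.

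The cells came from lumbar spinal cords of mouse embryos at embryonic day 13 and were enriched for motoneurons by panning with an antibody against p75NTR. In the microfluidic culture chambers used, axons extend through narrow channels into a compartment of their own. CNTF was given to both compartments and BDNF to the axonal side only, in all cultures. Libraries were made in 4 groups of 4, from the somatodendritic and the axonal compartment of *Hnrnpr*+/+ (wild-type) and of *Hnrnpr*-/- (knockout) motoneurons. In *Hnrnpr*-/- mice, exons 1 to 5 of *Hnrnpr*, which encodes an RNA-binding protein, were deleted with CRISPR/Cas9. The deletion is constitutive, so every cell type in the culture carries it, and panning enriches motoneurons without removing all other cells. The replicates are described by the study as biological, yet the labels name no animal or culture, so p-values measure the spread between these libraries only.

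Library totals ran from 22024923 to 34864151 counts, with 22700 to 26072 genes detected per library. *Hnrnpr* had 3922 to 15608 counts in the 8 *Hnrnpr*+/+ libraries and 13 to 38 in the 8 *Hnrnpr*-/- libraries, as the labels state. Of 10 motoneuron marker genes tested, 7 were lower in axons in each genotype, beside 27.4% of all genes tested in *Hnrnpr*+/+ and 26.8% in *Hnrnpr*-/-, and the neurofilament gene *Nefl* stood at 1226 ± 311 CPM (counts scaled to a common library size, SD, n = 4) in *Hnrnpr*+/+ somatodendritic libraries. *Chat*, the acetylcholine-synthesizing enzyme that defines motoneurons and 1 of the 7, stood at only 0.899 ± 0.291 CPM there and passed the filter on low counts only through the somatodendritic libraries, and *Mnx1* had 0 counts in every library of 3 of the 4 groups, which allows up to 3 counts per library. The axonal libraries numbered 3 of the 2 genotypes deviated alike from their group means, with a correlation of 0.786 across genes. For the 8 genes and the contractile and pericyte lists, values without these libraries are given below.

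Mural cells hold capillaries and arteries together and set their width. Endothelial cells secrete PDGF-B, and the receptor encoded by *Pdgfrb* recruits pericytes to the vessel. Smooth muscle cells add a contractile apparatus of actin, myosin and their regulators. Much of that apparatus is switched on by the transcription factor SRF with its coactivator myocardin. SRF binds the CArG box, a stretch of A and T bases between CC and GG. *Mgp* encodes matrix Gla protein, a small secreted protein that is carboxylated with vitamin K, binds BMPs and prevents calcification of the vessel wall.

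To show which members carry a candidate SRF site, promoters (250 bases before to 50 after the start site) were searched for the CArG box, a pattern that is the same on both strands. The RefSeq promoter table (GRCm38.p6) had an entry for 5 of the 8 members, *Rgs5*, *Myl9*, *Des*, *Cnn1* and *Anpep*, and *Myl9* was the 1 with a box. Among related genes, *Vcl* and *Myl6* held one, 2 of 15 other contractile genes with an entry, as did *Cnn2*, 1 of 12 paralogues of the members, and 0 of 13 other pericyte genes. The box was present in 1.81% of all genes with a promoter in that table, and in 1.63% of all promoters. The windows below show the box in capitals with 10 bases on either side, on the gene's strand, and each promoter matched 1 place in GRCm39. They lie at chr2:156617213-156617242 (+) for *Myl9*, chr10:79824368-79824397 (+) for *Cnn2*, chr10:128328909-128328938 (-) for *Myl6* and chr14:20979229-20979258 (+) for *Vcl*.
Myl9: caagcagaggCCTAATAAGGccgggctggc
Cnn2: cgcttccacgCCTTATAAGGacatttgctc
Myl6: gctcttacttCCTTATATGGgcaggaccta
Vcl: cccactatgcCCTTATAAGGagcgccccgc
Counted from the start site of the promoter table, which for *Myl9* lies downstream of the gene start in the count table, the box ended 152 bases upstream in *Myl9*, 47 in *Cnn2*, 41 in *Myl6* and 218 in *Vcl*. A match of letters is a description of the promoter and not evidence of binding. Only exact matches within the promoter stretch were sought, so a gene without one is not shown to lack an SRF site.

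*Mgp* (GRCm39, chromosome 6, 136849433 to 136852821, minus strand) was near the detection floor in several somatodendritic libraries and far above it in every axonal one. Its axonal values were 280, 56.6, 25.8 and 379 CPM in *Hnrnpr*+/+ replicates 1 to 4, and 231, 28.7, 35.2 and 439 CPM in *Hnrnpr*-/- replicates 1 to 4. The somatodendritic values were 0.784, 0.045, 0.248 and 3 CPM in *Hnrnpr*+/+ and 0.371, 0.0433, 0.0419 and 2.4 CPM in *Hnrnpr*-/-, in the same order. In both compartments replicates 4 and 1 were the high libraries, and no axonal library reached down to a somatodendritic one. These somatodendritic values rest on 26, 1, 6 and 64 counts in *Hnrnpr*+/+ and on 9, 1, 1 and 56 counts in *Hnrnpr*-/-. The log2 difference, axonal against somatodendritic, was 7.52 ± 1.49 (SE) in *Hnrnpr*+/+ and 8.0 ± 1.53 in *Hnrnpr*-/-. Without *Hnrnpr*+/+ somatodendritic replicate 4 the first was 8.94, without *Hnrnpr*-/- somatodendritic replicate 4 the second was 10.2, and with DESeq2 shrinkage they were 4.49 and 4.62.

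The pericyte receptor and surface genes differed widely from each other. *Pdgfrb* (chromosome 18, 61178194 to 61218139, plus strand), the PDGF-B receptor, stood at 195, 48.4, 74.8 and 458 CPM in *Hnrnpr*+/+ axons and at 287, 39.3, 93.3 and 278 CPM in *Hnrnpr*-/- axons (replicates 1 to 4, as in all values that follow). It was well expressed on the somatodendritic side too, with 17.4, 8.91, 21.5 and 22.6 CPM in *Hnrnpr*+/+ and 12.8, 8.79, 31.4 and 33.1 CPM in *Hnrnpr*-/-. The groups did not overlap, but in *Hnrnpr*-/- the lowest axonal library was only 1.19 times the highest somatodendritic one. The log2 difference was 3.46 ± 0.77 in *Hnrnpr*+/+ and 3.02 ± 0.75 in *Hnrnpr*-/-, and the first was 2.64 without *Hnrnpr*+/+ axonal replicate 4.

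*Rgs5* (chromosome 1, 169483070 to 169523382, plus strand) encodes a regulator of G protein signalling that marks pericytes, and its compartments overlapped. Its axonal values were 13.6, 1.46, 1.98 and 9.36 CPM in *Hnrnpr*+/+ and 38.5, 2.05, 0.96 and 10.9 CPM in *Hnrnpr*-/-. On the somatodendritic side it stood at 3.38, 4.5, 3.44 and 3.38 CPM in *Hnrnpr*+/+ and at 4.36, 1.34, 4.06 and 4.16 CPM in *Hnrnpr*-/-. Axonal replicates 1 and 4 thus lay above all somatodendritic libraries, whereas axonal replicate 3 lay below its own somatodendritic group in each genotype. The log2 difference was 0.84 ± 0.90 and 1.91 ± 0.92, and the latter was 0.41 without *Hnrnpr*-/- axonal replicate 1.

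*Anpep* (chromosome 7, 79471551 to 79497958, minus strand), the cell-surface aminopeptidase N found on pericytes, was low everywhere. In axons it stood at 2.35, 0.541, 0.877 and 0.734 CPM in *Hnrnpr*+/+ and at 0.232, 0.311, 1.95 and 3.78 CPM in *Hnrnpr*-/-. The somatodendritic libraries held 1.27, 0.315, 1.37 and 1.13 CPM in *Hnrnpr*+/+ and 0.494, 0.866, 2.14 and 6.52 CPM in *Hnrnpr*-/-. The compartments overlapped in both genotypes, with log2 differences of 0.13 ± 0.90 and -0.68 ± 0.88. Either sign turned when 1 library was left out, to -0.52 without *Hnrnpr*+/+ axonal replicate 1 and to 0.41 without *Hnrnpr*-/- somatodendritic replicate 4.

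Of the actin and myosin regulators, *Tagln* and *Myl9* had the highest mean CPM of the 8 genes in axons. *Tagln* (chromosome 9, 45840926 to 45847356, minus strand), which encodes the actin-binding protein transgelin, stood at 253, 201, 1043 and 585 CPM in *Hnrnpr*+/+ axons and at 288, 257, 805 and 433 CPM in *Hnrnpr*-/- axons. Its somatodendritic values were 4.95, 1.98, 36.5 and 6.85 CPM in *Hnrnpr*+/+ and 3.13, 9.87, 23.6 and 9.78 CPM in *Hnrnpr*-/-. Replicate 3 was the highest library in all 4 groups. The log2 difference was 5.37 ± 0.95 in *Hnrnpr*+/+ and 5.26 ± 0.94 in *Hnrnpr*-/-.

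*Myl9* (chromosome 2, 156617324 to 156623577, plus strand), the regulatory light chain of smooth muscle myosin, followed *Tagln* closely. It stood at 260, 228, 819 and 498 CPM in *Hnrnpr*+/+ axons and at 227, 229, 849 and 393 CPM in *Hnrnpr*-/- axons. The somatodendritic values were 6.4, 2.43, 35.7 and 8.45 CPM and 3.91, 9.31, 25.5 and 15.8 CPM, respectively. Here too replicate 3 was highest in every group and the compartments did not overlap, with log2 differences of 5.09 ± 0.87 and 4.96 ± 0.86.

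*Cnn1* (chromosome 9, 22010501 to 22020517, plus strand) encodes calponin, an actin-binding brake on smooth muscle contraction. It stood at 77.2, 68.7, 346 and 126 CPM in *Hnrnpr*+/+ axons and at 73.5, 61.4, 399 and 96.6 CPM in *Hnrnpr*-/- axons. Its somatodendritic values were 1.84, 0.27, 10 and 1.74 CPM and 0.618, 2.25, 5.82 and 2.45 CPM, respectively. Replicate 3 was again the highest library of each group, and the log2 differences were 5.48 ± 1.05 and 5.82 ± 1.07. Without *Hnrnpr*+/+ somatodendritic replicate 3, the *Hnrnpr*+/+ differences rose to 6.86 for *Tagln*, 6.33 for *Myl9* and 6.93 for *Cnn1*.

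*Des* (chromosome 1, 75336936 to 75345223, plus strand), the intermediate filament of all muscle types and of pericytes, had a wide spread. In axons it stood at 14.4, 0.514, 7.63 and 42.5 CPM in *Hnrnpr*+/+ and at 14.3, 0.807, 15.5 and 58.1 CPM in *Hnrnpr*-/-. The somatodendritic libraries held 0.422, 0.135, 1.16 and 0.329 CPM in *Hnrnpr*+/+ and 0.288, 0.39, 0.293 and 2.49 CPM in *Hnrnpr*-/-. Axonal replicate 2 fell within the somatodendritic range in both genotypes, so the compartments overlapped. The log2 differences were 4.97 ± 1.34 and 4.67 ± 1.31. The first was 5.77 without *Hnrnpr*+/+ somatodendritic replicate 3 and the second 6.07 without *Hnrnpr*-/- somatodendritic replicate 4. With DESeq2 shrinkage the differences in *Hnrnpr*+/+ and *Hnrnpr*-/- were lower, at 3.32 and 3.28 for *Des*, 4.57 and 4.47 for *Tagln*, 4.41 and 4.31 for *Myl9*, and 4.46 and 4.73 for *Cnn1*.

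**Figure D1:**
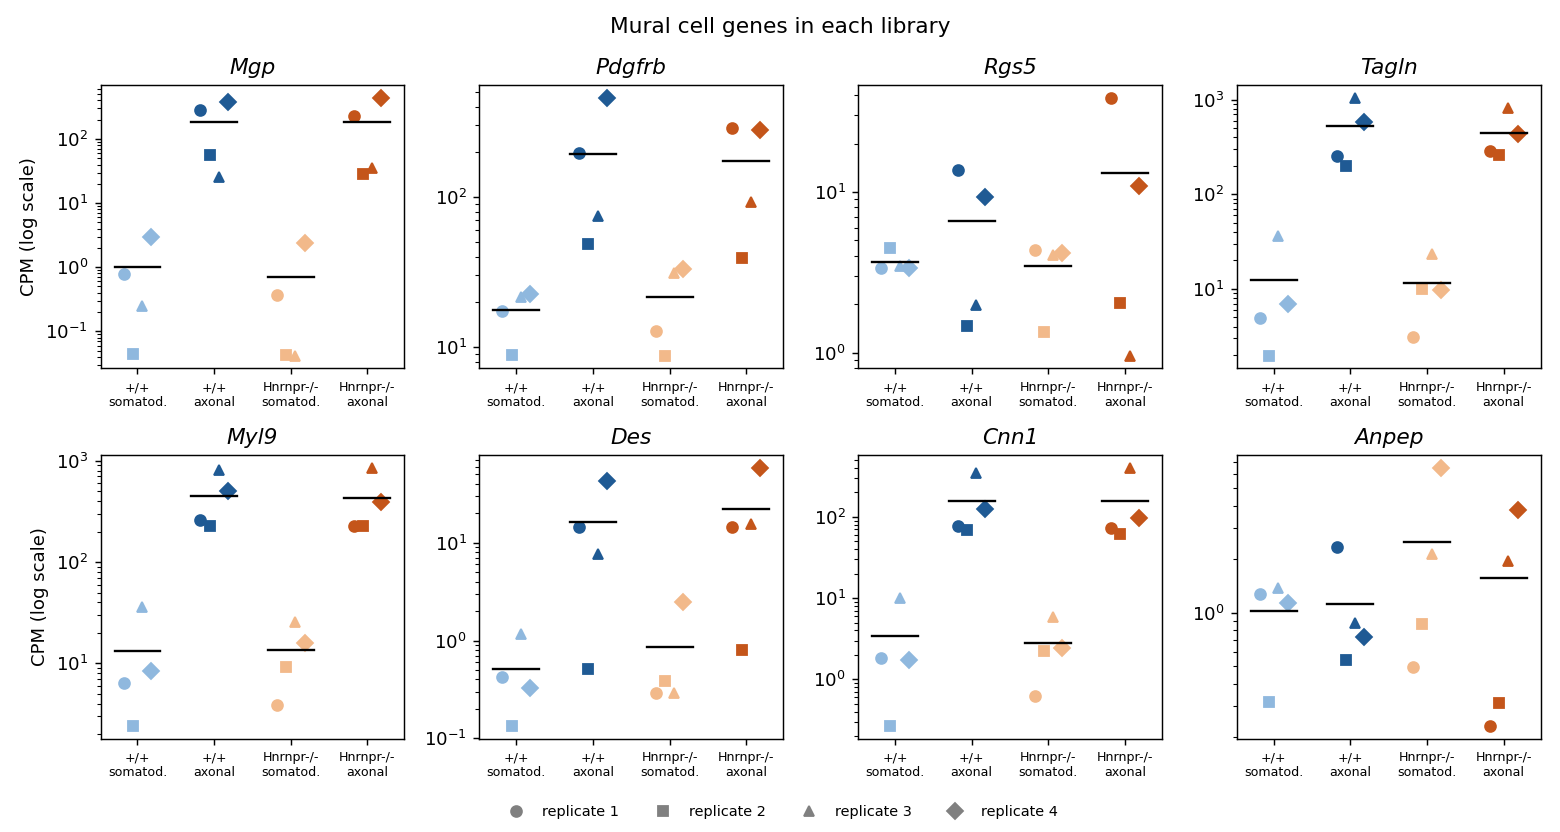
CPM (log axis) of each of the 8 genes in every library of the 4 groups, with a marker shape per replicate number and a bar at the group mean (n = 4). For *Mgp*, *Pdgfrb*, *Tagln*, *Myl9* and *Cnn1* every axonal point lies above every somatodendritic point of its genotype, while *Rgs5*, *Des* and *Anpep* overlap.

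All 8 genes passed the filter on low counts, but *Mgp* and *Des* would not have passed on the somatodendritic libraries alone. Every axonal library lay above every somatodendritic library for 5 of the 8 in each genotype, beside 24.8% of all genes tested in *Hnrnpr*+/+ and 24.1% in *Hnrnpr*-/-. The median log2 difference over the 8 was 5.03 in *Hnrnpr*+/+ and 4.82 in *Hnrnpr*-/-, beside 0.07 and -0.00 over all 19964 genes tested. As the choice of genes used this contrast, nothing is read from these counts. Without the axonal libraries numbered 3, the differences in *Hnrnpr*+/+ were 7.87 for *Mgp*, 3.70 for *Pdgfrb*, 1.13 for *Rgs5*, 4.76 for *Tagln*, 4.61 for *Myl9*, 5.16 for *Des*, 4.69 for *Cnn1* and 0.23 for *Anpep*. In *Hnrnpr*-/- they were then 8.37 for *Mgp*, 3.24 for *Pdgfrb*, 2.29 for *Rgs5*, 4.83 for *Tagln*, 4.39 for *Myl9*, 4.86 for *Des*, 4.8 for *Cnn1* and -0.75 for *Anpep*. In a bulk library, fewer cells of a type and less RNA per cell cannot be told apart, and a CPM says nothing of which cell or process the RNA came from.

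Per kilobase of exon, the order of levels changed between the compartments. In *Hnrnpr*+/+ axons *Myl9* led with 384 ± 233 RPKM (CPM divided by exon length, SD, n = 4), before *Tagln* with 328 ± 245, *Mgp* with 300 ± 279, *Cnn1* with 73 ± 61.4 and *Pdgfrb* with 31.8 ± 30.6. *Des* with 5.31 ± 6, *Rgs5* with 1.45 ± 1.3 and *Anpep* with 0.292 ± 0.215 RPKM followed. The ranges of all neighbours in this order overlapped, although *Myl9* exceeded *Tagln* in 4 of 4 libraries and *Mgp* exceeded *Cnn1* in 3 of 4. In *Hnrnpr*+/+ somatodendritic libraries *Myl9* with 11.3 ± 12.9 and *Tagln* with 7.93 ± 10.1 RPKM also led, but *Pdgfrb* with 2.88 ± 1.02 stood before *Mgp* with 1.65 ± 2.2 and *Cnn1* with 1.64 ± 2.09. *Rgs5* with 0.808 ± 0.121, *Anpep* with 0.265 ± 0.125 and *Des* with 0.167 ± 0.146 RPKM closed that order, and *Rgs5* against *Anpep* was the 1 pair of neighbours whose ranges did not overlap. In *Hnrnpr*-/- axons the order was *Myl9* (361 ± 250), *Mgp* (297 ± 315), *Tagln* (281 ± 159), *Cnn1* (74.5 ± 76.3), *Pdgfrb* (28.6 ± 20.8), *Des* (7.23 ± 8.1), *Rgs5* (2.89 ± 3.85) and *Anpep* (0.407 ± 0.435 RPKM), and all neighbours overlapped. The *Hnrnpr*-/- somatodendritic order was *Myl9* (11.6 ± 7.91), *Tagln* (7.32 ± 5.43), *Pdgfrb* (3.52 ± 2.05), *Cnn1* (1.32 ± 1.03), *Mgp* (1.16 ± 1.84), *Rgs5* (0.766 ± 0.315), *Anpep* (0.65 ± 0.719) and *Des* (0.282 ± 0.353 RPKM), again with overlap of all neighbours.

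Within the axonal libraries the 8 genes did not vary as 1 group. *Tagln* and *Cnn1* had the same order of replicates in both genotypes, 3 above 4 above 1 above 2, and *Myl9* had it in *Hnrnpr*+/+. *Mgp*, *Pdgfrb*, *Rgs5* and *Des* were instead high in axonal replicates 1 and 4, except that *Des* in *Hnrnpr*-/- was also high in replicate 3. Across the 8 axonal libraries, Pearson's r of log2(CPM + 1) was 0.974 for *Tagln* with *Myl9*, 0.969 for *Myl9* with *Cnn1* and 0.933 for *Tagln* with *Cnn1*. It was 0.903 for *Mgp* with *Pdgfrb*, 0.833 for *Mgp* with *Rgs5* and 0.89 for *Pdgfrb* with *Des*, but -0.419 for *Mgp* with *Cnn1* and -0.282 for *Mgp* with *Myl9*. These 8 points share libraries and depth across genes, and the correlations are descriptions.

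**Figure D2:**
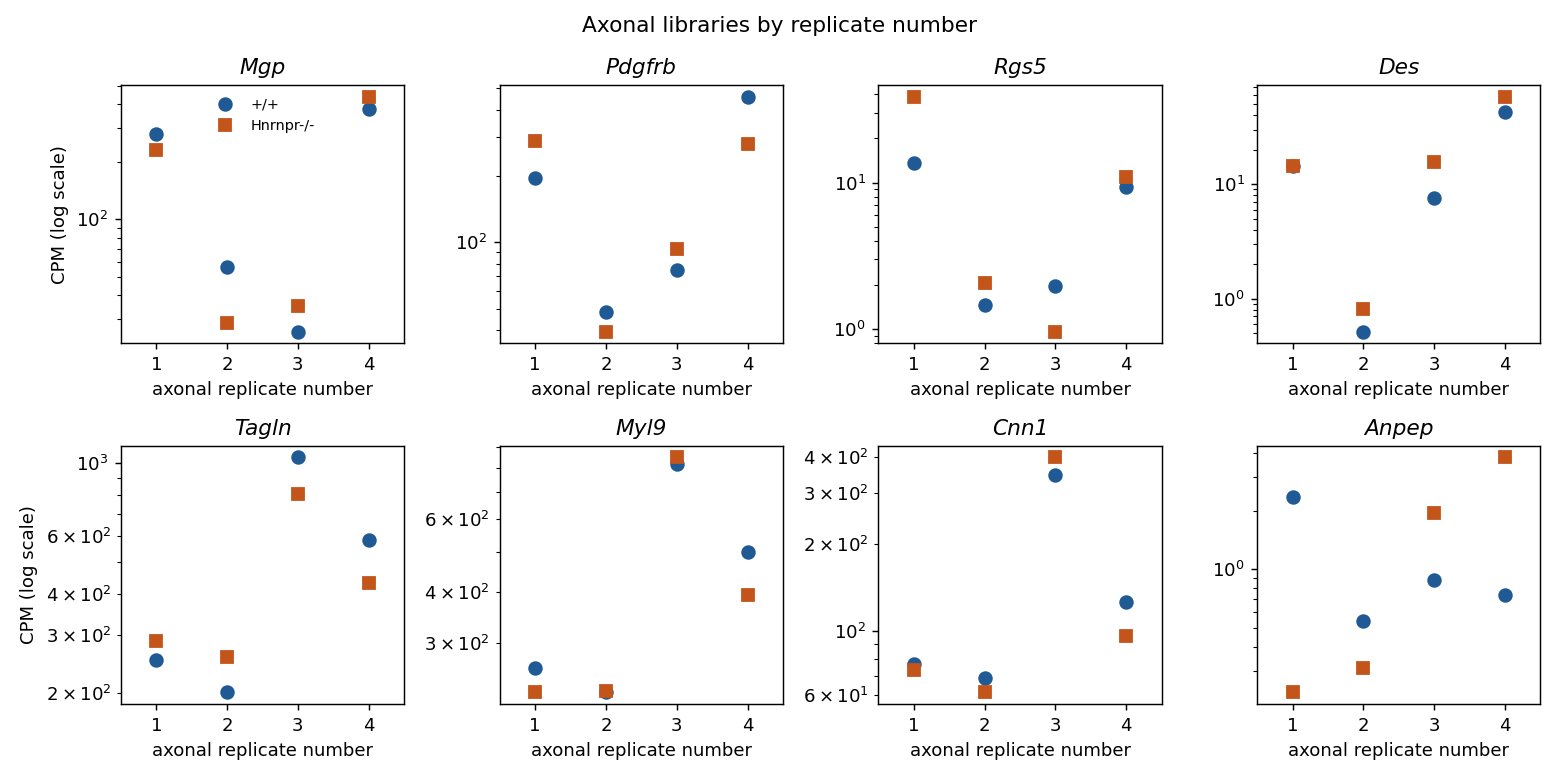
CPM (log axis) of each gene in the 8 axonal libraries against replicate number, which is a name and not an ordered scale, circles for *Hnrnpr*+/+ and squares for *Hnrnpr*-/-. *Tagln*, *Myl9* and *Cnn1* peak in replicate 3, whereas *Mgp* and *Pdgfrb* are highest in replicates 1 and 4 of both genotypes.

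In axons, the spread of *Mgp*, *Des* and *Myl9* between libraries of a genotype was larger than the difference between the genotypes at a given number. *Mgp* spanned 14.7-fold among *Hnrnpr*+/+ axonal libraries and 15.3-fold among *Hnrnpr*-/- ones, while the ratio of *Hnrnpr*-/- to *Hnrnpr*+/+ at the same number lay between 0.508 and 1.37. For *Des* the spans were 82.8-fold and 71.9-fold, and the ratios lay between 0.993 and 2.03. *Myl9* spanned 3.59-fold and 3.74-fold, with ratios between 0.79 and 1.04. *Anpep* differed from these, since its ratios ran from 0.0989 to 5.15 beside spans of 4.35-fold and 16.3-fold. On the somatodendritic side the ratios ran from 0.253 to 7.57 for *Des* beside spans of 8.59-fold and 8.63-fold, from 0.632 to 4.98 for *Tagln* beside 18.4-fold and 7.55-fold, and from 0.739 to 1.46 for *Pdgfrb* beside 2.54-fold and 3.77-fold. The labels do not say what a shared number marks.

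Other genes of the contractile apparatus, which were no part of the set, were tested between compartments with edgeR. All 17 tested of 18 listed were higher in *Hnrnpr*+/+ axons, with a median log2 difference of 3.31, beside 30.1% of all genes called higher and 27.4% called lower. In *Hnrnpr*-/- axons 15 of 17 were higher and 0 lower, with a median of 2.87, beside 27.5% and 26.8%. *Acta2*, smooth muscle actin, went from 113 ± 161 to 4058 ± 3982 CPM in *Hnrnpr*+/+ (log2 difference 5.17 ± 1.14, adjusted p = 0.0016). *Cald1*, the actin-binding protein caldesmon, went from 26.3 ± 19.8 to 587 ± 293 CPM (4.48 ± 0.62, adjusted p = 7.07e-05). *Tpm1*, a tropomyosin, rose by 3.24 ± 0.58 (adjusted p = 0.000372), and *Flna*, an actin crosslinker of many cell types, by 1.91 ± 0.38 (adjusted p = 0.000855). *Tpm1* and *Flna* are used outside muscle as well. *Myh11*, the heavy chain that defines mature smooth muscle, stood at 12.8 ± 11.8 CPM in *Hnrnpr*+/+ axons, where it passed (2.78 ± 1.09, adjusted p = 0.04), and at 5.03 ± 3.57 CPM in *Hnrnpr*-/- axons, where it did not (1.46 ± 1.05, adjusted p = 0.253). *Synpo2* was the other gene that did not pass in *Hnrnpr*-/- (0.55 ± 0.34, adjusted p = 0.184). Both were named after their values were seen. *Lmod1*, another of the genes called higher in each genotype, passed the filter on low counts only through the axonal libraries, as did *Art3* among the pericyte genes and *Twist1* among the fibroblast markers below. Without the axonal libraries numbered 3, 16 were higher in *Hnrnpr*+/+ and 15 in *Hnrnpr*-/-.

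The other pericyte genes were called in both directions, in shares near those of all genes. Of 15 tested of 16 listed, 5 were higher and 3 lower in *Hnrnpr*+/+ axons (median log2 difference -0.29), and 4 were higher and 3 lower in *Hnrnpr*-/- axons (median -0.27). The shares called higher were 33.3% and 26.7%, beside 30.1% and 27.5% of all genes tested. With single libraries left out, 2 to 4 were higher and 3 to 5 lower in *Hnrnpr*-/- axons. *Mcam*, a cell adhesion molecule of mural and endothelial cells, went from 10.7 ± 6.9 to 215 ± 116 CPM in *Hnrnpr*+/+ (4.32 ± 0.60, adjusted p = 7.59e-05). *Cspg4*, the NG2 proteoglycan of pericytes and oligodendrocyte precursors, rose by 1.53 ± 0.48 (adjusted p = 0.0135). The other 2 most abundant of the list did not pass in *Hnrnpr*+/+, *Ebf1* with -0.76 ± 0.53 (adjusted p = 0.234) and *Vtn*, vitronectin, with 1.44 ± 0.73 (adjusted p = 0.103). The 3 that fell in both genotypes, named after their values were seen, were *Notch3*, the Notch receptor of mural cells (-1.05 ± 0.31, adjusted p = 0.00895 in *Hnrnpr*+/+), and the soluble guanylate cyclase subunits *Gucy1a1* (-1.96 ± 0.66, adjusted p = 0.0195) and *Gucy1b1* (-2.99 ± 0.49, adjusted p = 0.000206), which neurons also express. *Kcnj8* and *Abcc9*, the channel and its sulfonylurea receptor that define brain pericytes, had group means of at most 2.61 CPM and did not pass. Somatodendritic and axonal libraries of *Hnrnpr*-/- with the same number deviated together, and with the culture as a block 6 pericyte genes were lower in *Hnrnpr*-/- axons in place of 3. Without the axonal libraries numbered 3, 5 were higher and 3 lower in *Hnrnpr*+/+ and 4 higher and 4 lower in *Hnrnpr*-/-.

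**Figure D3:**
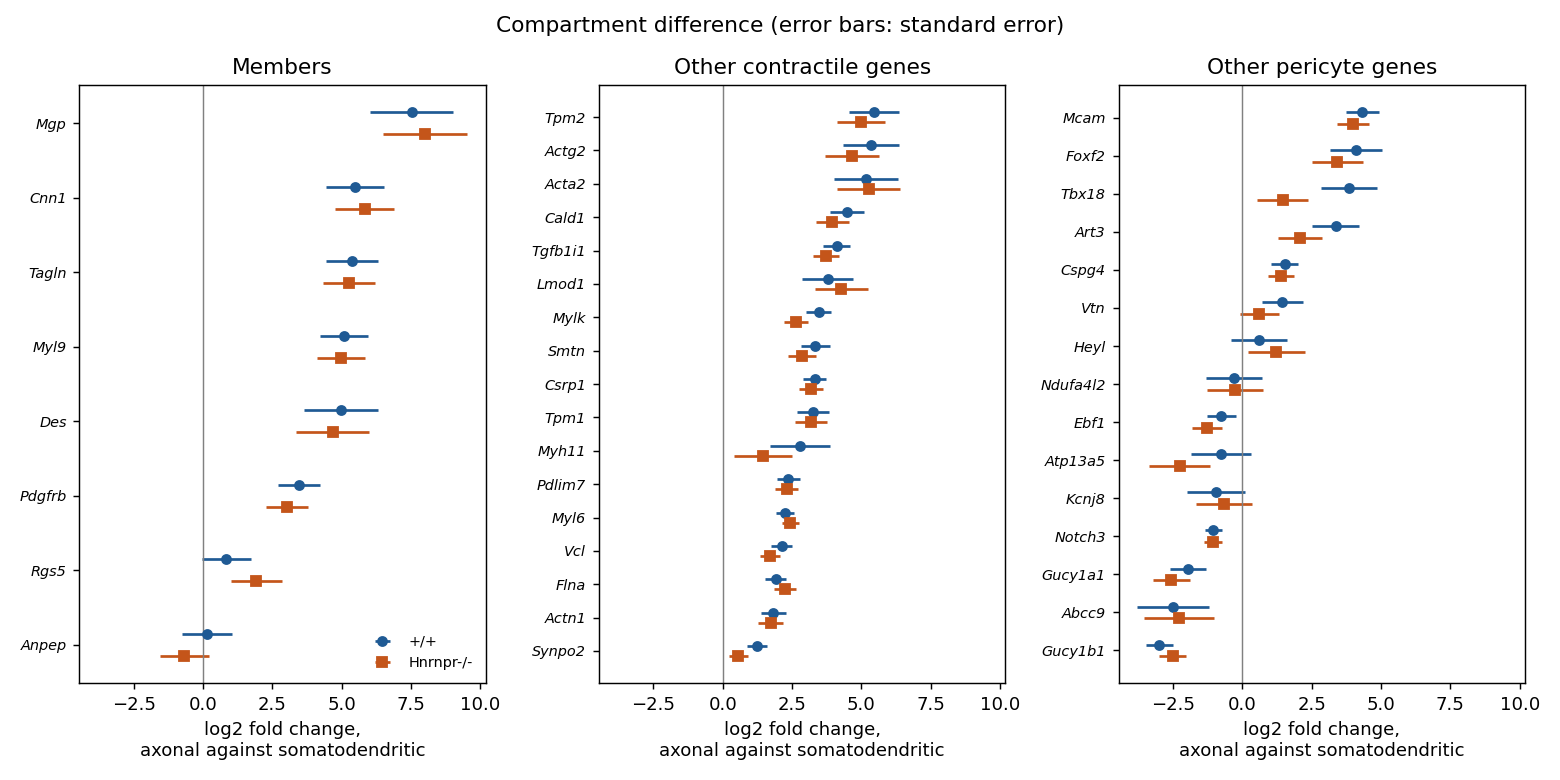
Log2 fold change, axonal against somatodendritic, with its standard error, in *Hnrnpr*+/+ (circles) and *Hnrnpr*-/- (squares) for the 8 genes, the other contractile genes and the other pericyte genes. The contractile genes lie right of 0, with medians of 3.31 and 2.87, whereas the pericyte genes lie on both sides, with medians of -0.29 and -0.27.

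Regulators and partners of the members were examined by role. The counts of all lists that follow stand beside 30.1% of all genes called higher and 27.4% called lower in *Hnrnpr*+/+ axons, and 27.5% and 26.8% in *Hnrnpr*-/- axons. Of 5 SRF and myocardin regulators, 3 were higher and 1 lower in *Hnrnpr*+/+ axons, and 3 were higher and 0 lower in *Hnrnpr*-/-. *Srf* itself rose by 1.45 ± 0.27 (adjusted p = 0.000547) and the transcription factor *Tead1* by 3.45 ± 0.41 (adjusted p = 3.06e-05). The third was *Myocd*, myocardin itself, with 0.208 ± 0.111 CPM on the somatodendritic side and 2.68 ± 1.58 CPM in axons. It passed the filter on low counts only through the axonal libraries, which favoured its call, and it was named after its values were seen. *Mrtfb*, a myocardin-related coactivator, fell by 0.66 on the log2 scale (SE 0.24, adjusted p = 0.0298), and its relative *Mrtfa* did not pass (-0.57 ± 0.26, adjusted p = 0.0778). Among the PDGF ligands and receptor alpha, 3 of 5 were higher in axons in each genotype and 0 lower. They included *Pdgfa* (1.01 ± 0.25, adjusted p = 0.00311) and *Pdgfc* (1.86 ± 0.34, adjusted p = 0.000428) in *Hnrnpr*+/+. *Pdgfb*, the ligand of the receptor encoded by *Pdgfrb*, had 18.7 ± 1.82 CPM on the somatodendritic side and 26.8 ± 31.8 CPM in axons of *Hnrnpr*+/+ and did not pass (0.52 ± 0.67, adjusted p = 0.527), and neither did *Pdgfra* (-0.38 ± 0.88, adjusted p = 0.732).

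Around *Mgp*, 4 of 7 vitamin K and BMP genes tested were higher and 1 lower in *Hnrnpr*+/+ axons, and 3 were higher and 1 lower in *Hnrnpr*-/-. *Acvrl1*, a receptor of the BMP family, rose by 5.50 ± 0.89 (adjusted p = 0.000199), from 1.47 ± 0.75 to 66.8 ± 67.3 CPM. *Ggcx*, the carboxylase that modifies *Mgp* protein, rose by 0.84 ± 0.20 (adjusted p = 0.00268). *Vkorc1l1*, an enzyme that recycles vitamin K, fell by 1.98 on the log2 scale (SE 0.18, adjusted p = 9.46e-06). *Vkorc1* of the same list went the other way, from 8.98 ± 3.41 to 30.9 ± 7.76 CPM in *Hnrnpr*+/+. It was named after its values were seen. *Gas6*, another carboxylated secreted protein, did not pass (0.14 ± 0.22, adjusted p = 0.613), and *Bglap*, the bone relative of *Mgp*, was not tested.

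Of 12 paralogues of the members, most of them used outside muscle, 8 were higher in axons in each genotype and 0 lower. In *Hnrnpr*+/+ *Cnn2* rose by 4.91 ± 0.66 (adjusted p = 5.89e-05) and *Cnn3*, which stood at 1523 ± 478 CPM in axons, by 2.53 ± 0.34 (adjusted p = 5.57e-05). *Myl12a*, the non-muscle counterpart of *Myl9*, rose by 4.80 ± 0.55 (adjusted p = 2.81e-05), while the closely related *Myl12b* rose by 0.37 ± 0.15 (adjusted p = 0.0438). *Tagln2* rose by 3.76 ± 0.59 (adjusted p = 0.000164), whereas the neuronal *Tagln3* did not pass (-0.32 ± 0.33, adjusted p = 0.416). *Rgs16* rose by 2.90 ± 0.55 (adjusted p = 0.00055), and *Rgs4* did not pass (-1.07 ± 0.75, adjusted p = 0.233). *Vim*, the intermediate filament of mesenchymal and glial cells, rose by 3.57 ± 0.39 (adjusted p = 2.47e-05), to 1703 ± 711 CPM.

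Markers of other cell types moved with the same libraries in part. The summed level of 12 fibroblast and meningeal markers ran from 69 to 433 CPM in *Hnrnpr*+/+ somatodendritic, 126 to 1916 in *Hnrnpr*+/+ axonal, 112 to 1268 in *Hnrnpr*-/- somatodendritic and 201 to 1829 CPM in *Hnrnpr*-/- axonal libraries. Of these 12, 4 were higher in *Hnrnpr*+/+ axons and 3 in *Hnrnpr*-/- axons, and 0 were lower. These are 33.3% and 25%, near the 30.1% and 27.5% of all genes called higher. The collagen genes *Col3a1* (0.54 ± 1.00, adjusted p = 0.663), *Col1a2* (2.03 ± 0.95, adjusted p = 0.0796) and *Col1a1* (1.5 ± 0.98, adjusted p = 0.203) did not pass in *Hnrnpr*+/+, and *Fbn1*, fibrillin, did (2.27 ± 0.64, adjusted p = 0.00733). In axonal replicates 1 to 4 the fibroblast sums were 724, 126, 550 and 1916 CPM in *Hnrnpr*+/+ and 643, 201, 766 and 1829 CPM in *Hnrnpr*-/-. The highest library was replicate 4 in each genotype and the lowest replicate 2, as for *Des*. Their part in the levels of the 8 genes was not tested.

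Endothelial markers were sparse except for the VEGF receptors. The sum of 12 markers ran from 6.84 to 17.6 CPM in *Hnrnpr*+/+ somatodendritic, 53.6 to 268 in *Hnrnpr*+/+ axonal, 10.7 to 48.7 in *Hnrnpr*-/- somatodendritic and 50 to 151 CPM in *Hnrnpr*-/- axonal libraries. In each genotype 2 of 9 tested were higher, *Flt1* (4.70 ± 0.92, adjusted p = 0.000688 in *Hnrnpr*+/+) and *Kdr* (3.12 ± 0.63, adjusted p = 0.000862), and 3 were lower, which passed the filter only through the somatodendritic libraries. The defining markers *Cdh5*, *Tie1* and *Cldn5* had 0 counts in all 4 *Hnrnpr*+/+ axonal libraries, and *Sox17* in the *Hnrnpr*+/+ somatodendritic and *Hnrnpr*-/- axonal ones. *Esam* (1.35 ± 1.00) and *Emcn* (1.71 ± 0.82) did not pass in *Hnrnpr*+/+ (adjusted p = 0.263 and 0.087).

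Skeletal muscle markers bear on *Des*, which that tissue also expresses. The sum of 13 ran from 4.14 to 4.47 CPM in *Hnrnpr*+/+ somatodendritic, 4 to 32.8 in *Hnrnpr*+/+ axonal, 3.13 to 35.2 in *Hnrnpr*-/- somatodendritic and 9.1 to 208 CPM in *Hnrnpr*-/- axonal libraries. The *Hnrnpr*-/- libraries numbered 4 had the highest sum in each compartment and also the highest *Des* of their groups. In *Hnrnpr*+/+ axons the sum was instead highest in replicate 3, with 32.8 against 17.7 CPM in replicate 4, where *Des* was highest. *Myf5* had 0 counts in every library of 3 groups and *Myog* in both *Hnrnpr*+/+ groups, and *Tnni2* had 0 in the *Hnrnpr*+/+ somatodendritic group. Of 6 tested, 1 was higher in *Hnrnpr*+/+ axons and 2 in *Hnrnpr*-/- axons, and 0 were lower, and these passed the filter only through the axonal libraries. The share of *Des* from such cells was not tested.

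Cartilage markers, among which *Mgp* is also at home, summed to 6.99 to 25.9 CPM in *Hnrnpr*+/+ somatodendritic, 33.9 to 423 in *Hnrnpr*+/+ axonal, 17.3 to 26.2 in *Hnrnpr*-/- somatodendritic and 35.7 to 78 CPM in *Hnrnpr*-/- axonal libraries. Of 7, 2 were higher and 1 lower in *Hnrnpr*+/+ axons, and 1 was higher and 1 lower in *Hnrnpr*-/-. *Comp*, among those higher in *Hnrnpr*+/+, and *Hapln1*, the 1 lower in *Hnrnpr*-/-, passed the filter only through the compartment where they were high. *Col2a1*, the collagen of cartilage, rose in *Hnrnpr*+/+ axons (3.92 ± 0.74, adjusted p = 0.000562), while *Acan*, the cartilage proteoglycan, fell by 3.52 on the log2 scale (SE 1.01, adjusted p = 0.00834). The highest *Hnrnpr*+/+ axonal sum was in replicate 3, where *Mgp* was lowest. Of that sum of 423 CPM, *Col2a1* alone made up 418. The share of *Mgp* from such cells was not tested.

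Of the glial lists, 4 of 6 astrocyte and radial glia markers were higher in *Hnrnpr*+/+ axons and 2 of 6 in *Hnrnpr*-/- axons, with sums of 1962 to 4703 and 1901 to 3758 CPM in axons, against 971 to 1350 and 903 to 2008 CPM on the somatodendritic side. Of 8 oligodendroglia and Schwann cell markers tested, 2 were higher in each genotype, with axonal sums of 269 to 1030 and 293 to 1611 CPM against 152 to 663 and 194 to 884 CPM. Of 9 microglia markers, 1 was higher in each genotype, with axonal sums of 14.8 to 132 and 20 to 405 CPM against 12 to 47 and 11.2 to 134 CPM. In these lists 0 markers were lower in axons. The motoneuron list fell, from 1079 to 2020 and 1203 to 2036 CPM on the somatodendritic side to 97.6 to 438 and 42.6 to 1094 CPM in axons. The part of these cell types in the result was not tested.

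**Figure D4:**
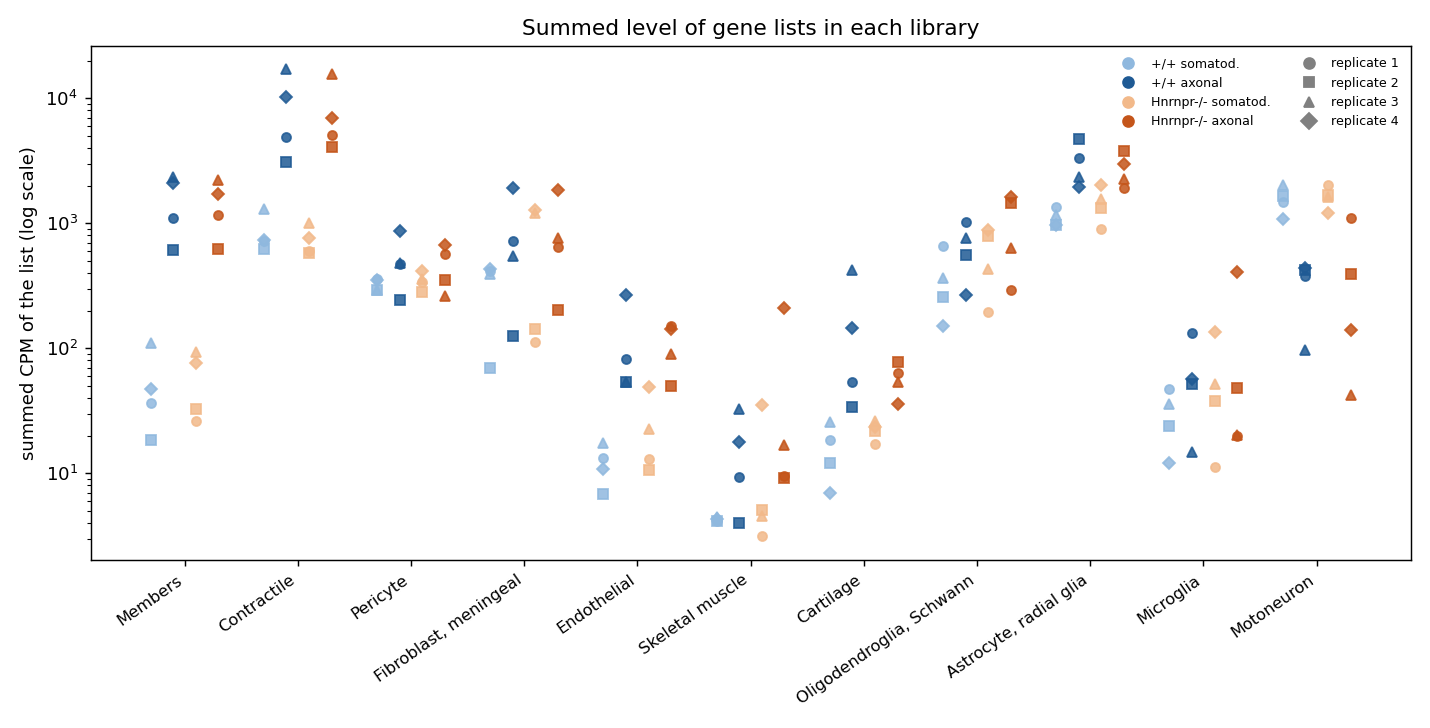
Summed CPM (log axis) of each gene list in every library, with colours for the 4 groups and a marker shape per replicate number. The contractile sum in axons runs from 3065 to 17013 CPM in *Hnrnpr*+/+ and is highest in replicate 3, as the sum of the 8 genes is, while the fibroblast sum is highest in replicate 4.

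The genes closest in pattern to *Mgp* and *Pdgfrb* were ranked among 12187 genes with a mean of at least 10 CPM in a group, by Pearson's r of log2(CPM + 1). Over all 16 libraries, which mainly separate the compartments, *Mgp* was nearest to *Gja3* (r = 0.974), *Tbx2* (0.970), *Acvrl1* (0.969) and *Mpv17* (0.969). Over the 8 axonal libraries its nearest were *Ccndbp1* (0.976), *Gatb* (0.961), *Rftn1* (0.949), *Angpt2* (0.932) and *Fbxl20* (0.929). *Pdgfrb* was nearest to *Olfml2b* (0.989), *Foxf2* (0.984), *Irgm1* (0.984), *Eng* (0.981) and *Bgn* (0.979) over 16 libraries. Over the 8 axonal libraries it was nearest to *Foxc1* (0.988), *Gm15418* (0.985), *Irgm1* (0.984), *Acvrl1* (0.983) and *Col4a1* (0.983). Of these, *Foxf2* stood on the pericyte list, *Foxc1* on the fibroblast list and *Acvrl1* on the list around *Mgp*.

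No difference between the genotypes was detected for the 8 genes in axons. In edgeR 0 of 8 passed an adjusted p under 0.05 and 0 of 8 an unadjusted one, beside 0.01% and 3.88% of all genes tested. The log2 difference, *Hnrnpr*-/- against *Hnrnpr*+/+, was -0.02 ± 1.09 (SE) for *Mgp*, with a 95% confidence interval of -2.34 to 2.31. For *Pdgfrb* it was -0.15 ± 0.70 (-1.64 to 1.33), for *Tagln* -0.22 ± 0.78 (-1.89 to 1.44), for *Myl9* -0.09 ± 0.73 (-1.64 to 1.46) and for *Cnn1* 0.03 ± 0.86 (-1.80 to 1.86). The widest departures from 0 were those of *Rgs5* with 0.99 ± 0.89 (-0.91 to 2.90), *Anpep* with 0.48 ± 0.89 (-1.41 to 2.37) and *Des* with 0.45 ± 1.09 (-1.89 to 2.78). All 8 estimates could take either sign when 1 library was left out, with lowest and highest values of -0.92 and 0.61 for *Mgp*, -0.51 and 0.72 for *Pdgfrb*, -0.51 and 1.62 for *Rgs5*, -0.67 and 0.38 for *Tagln*, -0.66 and 0.38 for *Myl9*, -0.67 and 1.56 for *Des*, -0.99 and 0.81 for *Cnn1*, and -0.43 and 1.12 for *Anpep*. All adjusted p-values were 1 and the unadjusted ones lay between 0.284 and 0.989. The exact permutation test on mean log2(CPM + 1), two-sided, gave 0.714 to 1 per gene, and the smallest p that 4 against 4 libraries allow is 0.0286. The ranges of the 2 genotypes overlapped for every gene. The intervals, from the fit without a block, leave room for differences of several-fold in either direction. With the replicate number as a block, the SE fell for every gene, to between 0.33 for *Myl9* and 0.80 for *Anpep*. Again 0 of 8 passed an adjusted or unadjusted p under 0.05, and the labels do not say what that number marks.

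On the somatodendritic side 0 of 8 passed either threshold, beside 0.00501% and 0.601% of all genes. *Anpep* had the largest estimate, 1.29 ± 0.90 (-0.63 to 3.21, unadjusted p = 0.173, adjusted p = 1 in edgeR), which was 0.19 without *Hnrnpr*-/- somatodendritic replicate 4. *Des* followed with 0.74 ± 1.26 (-1.95 to 3.43) and *Mgp* with -0.49 ± 1.35 (-3.36 to 2.37), both on few counts. *Pdgfrb* stood at 0.29 ± 0.70 (-1.21 to 1.79), *Cnn1* at -0.32 ± 0.92 (-2.27 to 1.64), *Tagln* at -0.12 ± 0.80 (-1.81 to 1.58), *Rgs5* at -0.08 ± 0.90 (-2.0 to 1.85) and *Myl9* at 0.04 ± 0.74 (-1.53 to 1.62). The exact permutation p lay between 0.486 and 1. Leaving out 1 library moved *Mgp* between -2.67 and 0.90, *Tagln* between -0.73 and 1.34, *Myl9* between -0.45 and 1.25, *Des* between -0.66 and 1.52 and *Cnn1* between -0.97 and 1.1.

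Whether the genotype effect differed between the compartments was tested as an interaction. Again 0 of 8 passed either threshold, beside 0% and 1.33% of all genes (0 and 265 genes in edgeR, and 1 gene at the adjusted threshold in DESeq2 with default settings). The estimates, effect in axons minus effect on the somatodendritic side, ran from -0.81 ± 1.26 for *Anpep* (-3.49 to 1.87) to 1.07 ± 1.27 for *Rgs5* (-1.63 to 3.77). For *Mgp* the difference was 0.47 ± 1.73 (-3.21 to 4.15) and for *Pdgfrb* -0.44 ± 0.99 (-2.55 to 1.67). DESeq2 with default settings and with shrinkage also called 0 of 8 in all 3 comparisons, and so did the fit without the axonal libraries numbered 3. Of the other contractile and the other pericyte genes, 0 of 17 and 0 of 15 passed either threshold in any of these 3 comparisons, *Myh11* and *Synpo2* included.

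**Figure D5:**
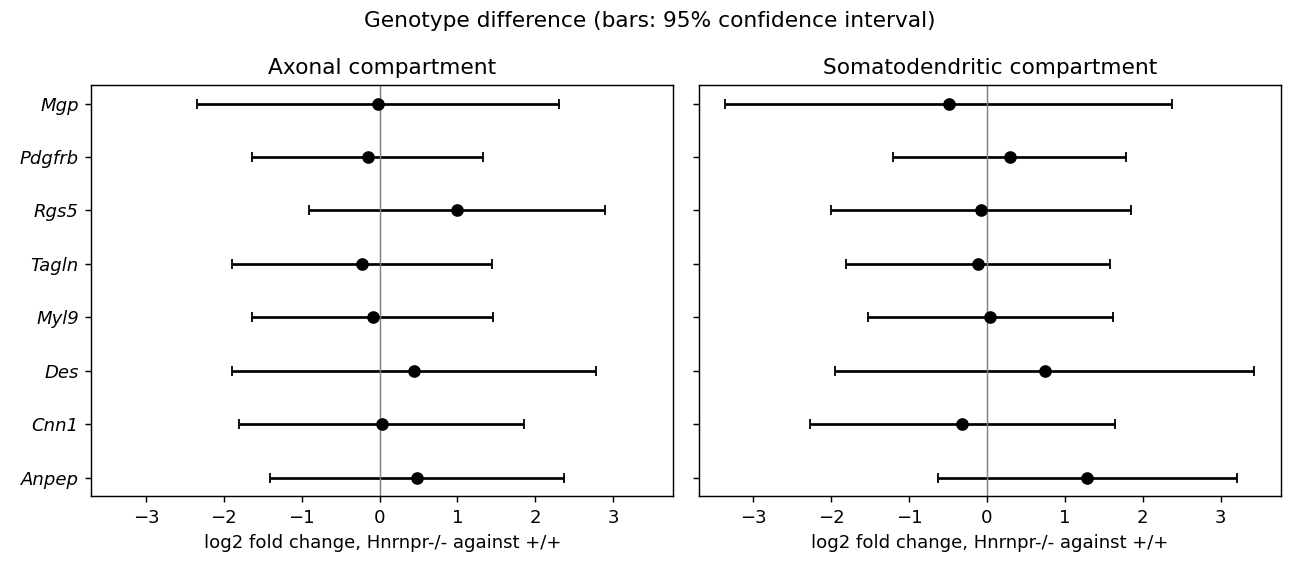
Log2 fold change, *Hnrnpr*-/- against *Hnrnpr*+/+, with its 95% confidence interval, for the 8 genes in the axonal (left) and somatodendritic (right) compartment. Every interval includes 0, and the narrowest in axons, that of *Pdgfrb*, runs from -1.64 to 1.33.

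Some counts can be shared with other annotated genes. Reads were counted on exons with fractions for reads that overlapped several genes, and the library kit does not mark strand. *Tagln* overlaps *Pcsk7* on the opposite strand (145472 counts in total), with 123 bases in common between transcripts, so reads there cannot be told apart. *Des* overlaps the antisense gene *Gm15179*, which held 2 counts in all. At a minimum of 95% identity over 100 bases, *Cnn1* shared 961 bases with a transcript of *Elof1* and *Tagln* 404 with *Gm48529*. None was found for *Mgp*, *Pdgfrb*, *Rgs5*, *Myl9* and *Anpep*. In the annotation used for the counts, however, *Cnn1* overlapped no other gene and *Tagln* overlapped *Pcsk7* alone.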

How the data were processed

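RNA of both compartments was amplified with the SMART-Seq v4 kit, with more PCR cycles for axonal than for somatodendritic samples, before tagmentation and single-end sequencing. The authors trimmed reads with Cutadapt, mapped them with STAR 2.7.2b to GRCm39 (RefSeq) and counted them on exons with featureCounts 1.6.4, in the reverse-strand setting and with fractions for multi-mapping and multi-overlapping reads. The deposited values are these estimated counts, not normalized, for 46320 genes in 16 libraries. More PCR cycles from less RNA can widen the spread of low genes in axons. Cycles and reaction volume both went with the compartment. Preparation and compartment therefore cannot be told apart in any axonal against somatodendritic difference.

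Counts were rounded and fitted with edgeR 4.0.16 (R 4.3.3; filterByExpr, TMM, glmQLFit, glmQLFTest, two-sided) in 1 model of 4 groups, with Benjamini-Hochberg adjustment over the 19964 genes that passed the filter and a threshold of 0.05. SE is the log2 difference divided by the root of F. CPM are counts scaled to the TMM-adjusted library size, and RPKM divide these by the exon length. Library totals, 22024923 to 34864151, leave the low genes limited by counting error, and the spread between libraries exceeds it for the others of the 8. The genotype contrast in axons was also run on simulated counts, but the outcome is not given here and is not used as support. Promoter windows came from the RefSeq table and were placed in GRCm39 by exact match, and transcripts were compared with BLAST+ 2.17.0.

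The 8 genes and the 14 other lists were chosen with earlier results of these data known, so no list is independent evidence of its direction. Named were all 8 genes, up to 4 genes of each other list with the highest mean CPM over 16 libraries (any paralogue), *Hnrnpr*, and for *Mgp* and *Pdgfrb* the 5 genes nearest in pattern over 16 and over 8 axonal libraries. A gene that this rule names is not reported here. Others were named after their values were seen. For lists, counts and medians are given and no set test was run.

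Alternatives were RLE size factors, library totals, no filter, a minimum of 10 counts in all libraries of any group, unrounded counts, DESeq2 1.42.0 with default settings and with shrinkage, only the groups compared, the replicate number and the culture as a block, and each library left out in turn. Only in *Hnrnpr*-/- did the same-numbered libraries of the compartments correlate over 0.1 in all 4 pairs (0.169 to 0.577), so the block by culture is given there where it moved a count. Leaving out the axonal libraries numbered 3 was added after the data were seen.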

Additional observations from a re-analysis of the deposited data

Results flagged for a closer look

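In groups of 4 libraries, the lowest and the highest library were compared with the nearest of the others by Dixon's ratio of gap to range at its 95% critical value. Of 32 groups (8 genes in 4 groups), 7 held a library far from the rest on the CPM scale. The critical value assumes normal values, whereas CPM were skewed in many groups, so no chance rate is set beside this count. *Mgp* stood at 2.4 CPM in *Hnrnpr*-/- somatodendritic replicate 4 (ratio 0.861), above 0.0419 to 0.371 CPM in the others, and *Des* at 2.49 CPM in the same library (0.954), above 0.288 to 0.39 CPM. *Tagln* stood at 36.5 CPM (0.859) and *Cnn1* at 10 CPM (0.839) in *Hnrnpr*+/+ somatodendritic replicate 3. *Cnn1* also stood at 399 CPM (0.896) in *Hnrnpr*-/- axonal replicate 3, above 61.4 to 96.6 CPM. *Rgs5* was high at 4.5 CPM in *Hnrnpr*+/+ somatodendritic replicate 2 (0.949) and low at 1.34 CPM in *Hnrnpr*-/- somatodendritic replicate 2 (0.9). These 7 values come from 5 libraries, so they are not independent of each other.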

How the results depend on the processing

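No direction of a called result turned, and 0 of 8 members passed the adjusted or unadjusted threshold for the genotype or the interaction under any alternative. *Mgp* and *Des* were not tested in the fit of somatodendritic libraries alone, where they did not pass the filter. Of 1070 values recomputed, 987 stayed within the replicate spread or within 1.5 times of a count, and 83 moved. In *Hnrnpr*-/-, leaving out single libraries gave 2 to 4 pericyte genes higher in axons (main 4; 2 without *Hnrnpr*-/- somatodendritic replicate 2 or 3 or axonal replicate 4) and 3 to 5 lower (main 3; 5 without *Hnrnpr*-/- axonal replicate 1 or 4), and the replicate block by culture gave 6 lower. No other count of the contractile and pericyte lists, the lists recomputed, moved by over 1.5 times under either replicate block. It left 1 gene called in axons in place of 2, with 655 in place of 775 at an unadjusted p under 0.05, and 174 in place of 120 on the somatodendritic side. For *Mgp* in axons the blocked value was -0.21 with an SE of 0.34 in place of 1.09. Same-numbered axonal libraries of the 2 genotypes correlated at 0.0462 to 0.786 and somatodendritic ones at 4.35e-05 to 0.47, over 0.1 in 2 of 4 pairs each. Within *Hnrnpr*+/+ the compartments correlated at 0.0833 to 0.292, where each library was closest to its own number, and within *Hnrnpr*-/- at 0.169 to 0.577. The study states that its control and treatment conditions shared a batch of cells. The labels do not tie a number to a batch, so pairing by number rests on these correlations only. The unadjusted axonal count was 137 when only axonal libraries were fitted, 1639 without a filter and 1583 without *Hnrnpr*+/+ axonal replicate 1, and DESeq2 called 5 genes there. The interaction could not be fitted on only the groups compared. Depth limits *Mgp*, *Des* and *Anpep* on the somatodendritic side, where 1 count moves the lowest values.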
